A study of Canis lupus familiaris with 4 samples.

Results

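Chromosome 17 of the dog held 2623 of the 59081 accessible regions (4.44%) counted by ATAC-seq in MDCKII cells. The members are all peaks, each 501 bp wide, whose names place them on chromosome 17 of the CanFam3.1 assembly. MDCKII is a canine kidney line that grows as a polarised epithelial sheet. ATAC-seq uses the Tn5 transposase, which cuts open DNA and adds adapters there, so a count in a peak measures accessibility. The reseeded group (n = 2 libraries, A and B) came from cells grown for 7 d to maturity, then detached and reseeded for 2 h. The mature group (n = 2 libraries, A and B) was grown to maturity for 7 d and taken with no detachment named. All 4 libraries are labelled wild type, and no drug or transgene is named. The design sets freshly reseeded cells against mature ones and asks where accessibility differs. Chromosome 17 was chosen by its density of peaks and by the median of their folds in this same comparison.

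Open regions of this kind include promoters, enhancers and insulator sites, where transcription factors keep nucleosomes off the DNA. Chromosomes differ in how many such regions they hold, because gene-rich stretches carry many and gene-poor stretches few. Gene-poor chromatin is often compacted at the nuclear envelope, and gene-rich chromatin lies more often in the nuclear interior. All dog autosomes are acrocentric, with the centromere close to one end. The deposited table names peaks by position only, so no gene is assigned to any peak here.

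Chromosome 17 held 922827 and 1306967 counts in reseeded libraries A and B and 473363 and 340206 counts in mature libraries A and B. These were 5.46% and 5.44% of the counts of the reseeded libraries and 5.40% and 5.44% of those of the mature libraries. Over its peaks, log2(CPM + 0.5) correlated with a Pearson's r of 0.994 between the reseeded libraries, 0.976 between the mature libraries and 0.454 to 0.471 between groups, across peaks that are not independent replicates. CPM is the count scaled to a common library total with TMM factors. The labels do not say whether A and B were separate cultures. The p-values therefore reflect the spread of these 4 libraries alone, and that spread may be technical. A code at the start of the sample names is shared within each group and differs between them, so a batch that followed it and reseeding cannot be told apart. A fold is relative to all other peaks, so a change shared by every peak would not show.

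Counted over all called peaks, gains and losses on chromosome 17 were nearly balanced, while gains of at least 2-fold outnumbered such losses. The chromosome was chosen with its median fold known, so its summary is a description with no test. The median log2 fold of its 2622 tested peaks, reseeded over mature, was -0.01, with quartiles of -0.66 and 0.97. Over the other numbered chromosomes together the median was 0.0, with quartiles of -0.62 and 1.11, so a median near 0 does not set chromosome 17 apart from them. With edgeR's quasi-likelihood test and an adjusted p below 0.05 over all tested peaks, 1073 peaks (40.9%) were called higher and 1123 (42.8%) lower, against 42.3% and 41.8% of the whole series. Called peaks that differed by at least 2-fold, from here on 2-fold gains and 2-fold losses, were 640 (24.4%) and 435 (16.6%), against 26.9% and 15.0% in the series. There were 181 gains of at least 4-fold (6.90%) and 192 such losses (7.32%), against 10.1% and 6.04% in the series. The order of the 4-fold counts turned without mature library B, with 236 gains and 187 losses of this size, and with scaling by library size alone or by upper-quartile factors, with 191 gains and 182 losses each. Under loess offsets, which follow the mean level of a peak, there were 484 gains and 471 losses of 2-fold or more.

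Measured as summed accessibility on the TMM scale, the chromosome lost slightly more than it gained. Its peaks summed to 53849 and 53602 CPM in reseeded libraries A and B, against 54903 and 55104 CPM in mature libraries A and B. The 1302 peaks with higher mean CPM after reseeding gained 13683 CPM together, or 24.9% of the mature sum, and the 1320 peaks with lower mean CPM lost 14961 CPM, or 27.2%. The groups did not overlap in this sum, and the log2 ratio of the sums was -0.03, the same value as over the other numbered chromosomes together, which gained 26.0% and lost 28.4%. As a share of the library total given above, which uses no TMM factors, chromosome 17 did not fall after reseeding, so the direction of the sum rests on the scaling. Chromosome 20 gained 16.3% and lost 30.5% of its mature sum, and chromosome 9 gained 17.8% and lost 31.4%. These are the numbered chromosomes with more peaks per Mb than chromosome 17, at 44.5 and 58.3 against 40.8, and their median log2 folds were -0.31 and -0.28. Chromosome 2, the next below in density at 34.6 peaks per Mb, gained 27.1% and lost 27.4%, with a median log2 fold of 0.04. No test of these differences was made, because chromosome 17 was picked for them.

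**Figure D1:**
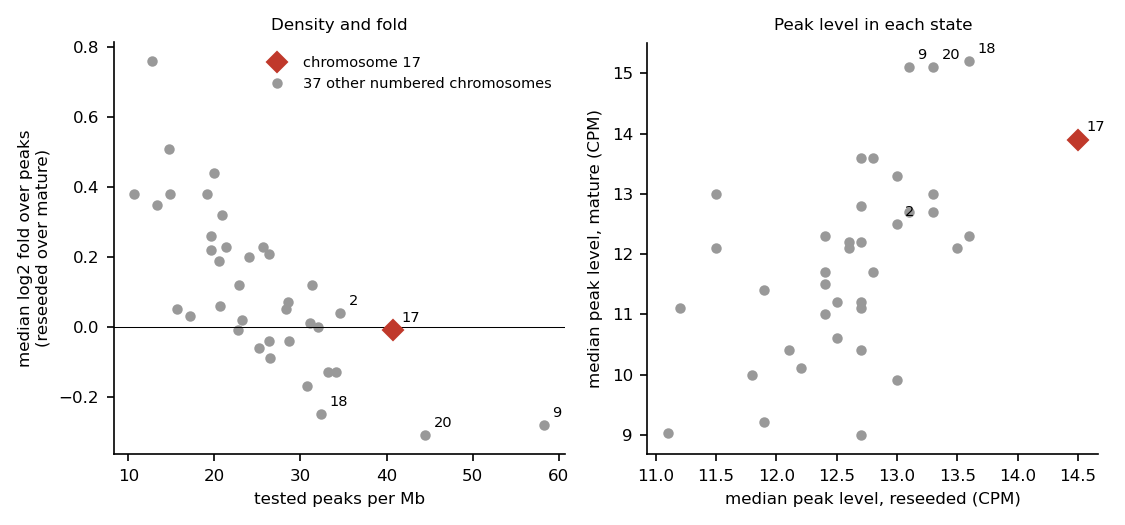
Each point is a numbered chromosome. The left panel plots the median log2 fold over peaks (reseeded over mature) against tested peaks per Mb, with chromosome 17 at 40.8 peaks per Mb and -0.01, and the right panel plots the median CPM of peaks in mature cells against that in reseeded cells, where chromosome 17 lies farthest right at 14.5 CPM.

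Peaks on chromosome 17 were strong as well as dense. The median peak had 14.5 CPM in reseeded cells, above the 11.1 to 13.6 CPM of the 37 other numbered chromosomes, and 13.9 CPM in mature cells, where the others ranged from 8.99 to 15.2 CPM and 3 were higher. Over 50 CPM after reseeding were 186 of its peaks (7.09%), against 2.61% on the other numbered chromosomes together and 3.68% and 4.27% on chromosomes 20 and 9. In mature cells 233 of its peaks (8.89%) passed 50 CPM, against 4.54% on the others together and 7.28% and 7.02% on chromosomes 20 and 9. Peaks under 5 CPM were 239 (9.12%) in reseeded and 371 (14.1%) in mature cells, against 4354 (7.91%) and 11013 of 55045 on the others. Strong peaks thus took a higher share on chromosome 17 than on the others together in both states, and weak peaks a lower share in the mature state only. The low share of weak peaks in mature cells was not particular to chromosome 17. It was 12.2% on each of chromosomes 20 and 9, whose shares in reseeded cells were 8.25% and 10.4%. Whether copy number or mapping differs along the genome of this line was not tested.

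The median fold of the peaks fell with their level, while 2-fold gains outnumbered 2-fold losses at every level. Of the chromosome's peaks with the lowest mean CPM over both groups (1.29 to 8.84 CPM, up to the first quartile), 212 were 2-fold gains and 162 2-fold losses, and the median log2 fold was 0.43. Of those with the highest mean CPM (26.1 to 186 CPM, from the last quartile), 84 were 2-fold gains and 65 2-fold losses, and the median log2 fold was -0.28. Weak peaks thus held more of the 2-fold differences in both directions, and the median of the strong peaks lay below 0. Peaks entered the table by a rule not given in the sources used here, and a peak weak in both groups may not have entered it, so a low mean here can itself go with a large fold.

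Along the chromosome, accessibility summed over 1 Mb was lower after reseeding at both ends and moved in short blocks of either sign between them. Of 65 windows of 1 Mb up to the last peak, 53 held at least 5 peaks and were tested. By edgeR's quasi-likelihood test over all windows of the series, 25 (47.2%) were called higher and 21 (39.6%) lower, against 51.7% and 34.3% of all windows, and 7 were not called. Most differences were small, as 44 of the 53 windows had log2 folds between -0.5 and 0.5, and 1 called window, lower, passed 2-fold. The split depends on the scaling: factors computed on the window sums gave 16 higher and 26 lower, and loess offsets gave 31 higher and 16 lower. It also depends on the window size, as windows of 2 Mb gave 11 higher and 14 lower. The side with more calls changed as well when mature B or reseeded B was left out, fits with a single library in a group. The median log2 fold over the windows was then 0.03 and 0.01, against 0.04 with all 4 libraries.

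**Figure D2:**
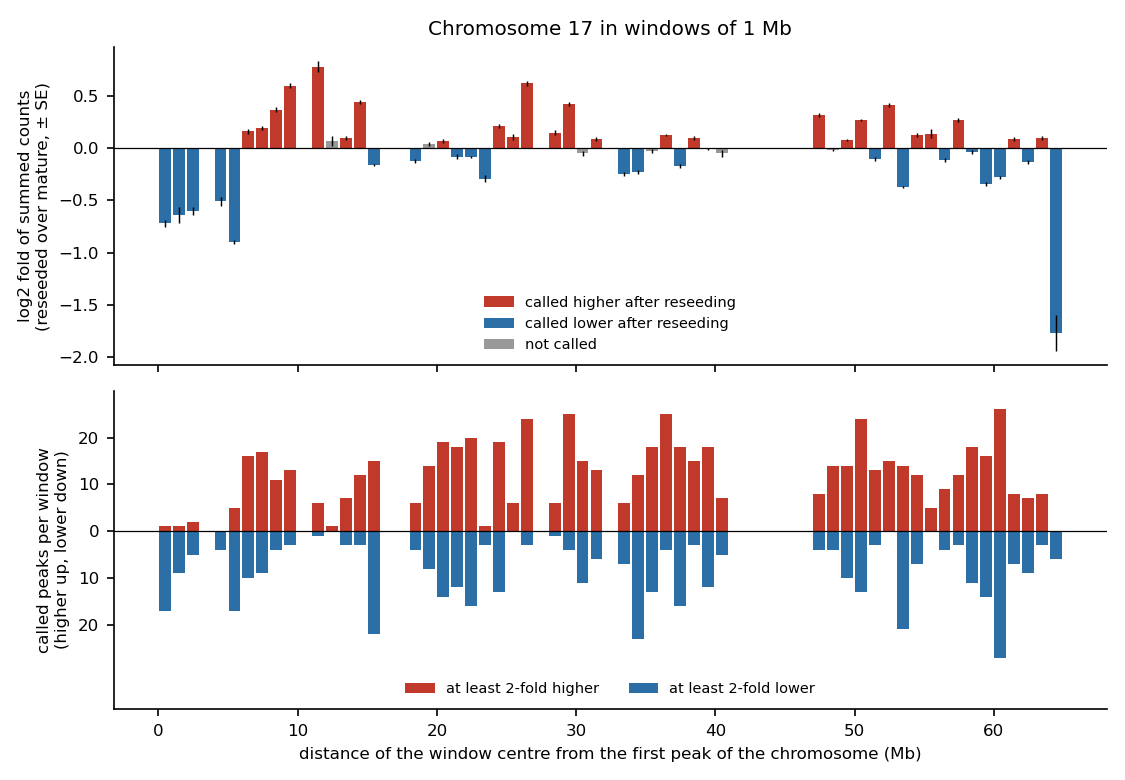
The upper panel shows the log2 fold of summed counts (reseeded over mature, bars, with SE as lines) for the 53 tested windows of chromosome 17, placed by distance from its first peak. The lower panel shows how many peaks of each window were called and at least 2-fold higher (up) or lower (down); all 5 tested windows of the first 6 Mb and the last window lie below 0 in the upper panel, and most windows between them hold peaks of both kinds.

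Over the first 6 Mb, all 5 tested windows were called lower. The first window (1 to 1000000, 31 peaks) had 479 and 476 CPM in reseeded libraries A and B, against 764 and 810 CPM in mature libraries A and B, and the log2 fold was -0.72 (SE 0.03, adjusted p = 1.12e-06). The window from 5000001 to 6000000 (36 peaks) had 427 and 424 CPM in reseeded libraries, against 785 and 798 CPM in mature libraries, and the log2 fold was -0.90 (SE 0.02, adjusted p = 5.11e-07). The window from 1000001 to 2000000 (18 peaks) had 205 and 207 CPM in reseeded libraries, against 291 and 361 CPM in mature libraries, and the log2 fold was -0.64 (SE 0.08, adjusted p = 0.000302). In each of these windows both reseeded libraries lay below both mature libraries.

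Of the 107 peaks of the first 6 Mb, 52 (48.6%) were 2-fold losses and 9 (8.41%) 2-fold gains, with a median log2 fold of -0.87. These 107 peaks are 4.08% of the tested peaks of the chromosome and held 12% of its 2-fold losses and 17.7% of its losses of at least 4-fold. Without them the median log2 fold of the chromosome was 0.02. Over the first 6 Mb of the 37 other numbered chromosomes the median log2 fold ranged from -0.53 on chromosome 16 to 1.28 on chromosome 29, with a middle value of 0.04, so the start of chromosome 17 was the lowest of the 38. This was seen after the values were known and was not tested. The bound of 6 Mb is where the run of lower windows on chromosome 17 itself ends, which favours its low rank. Over the same span, 2-fold losses made up 41.8% of the peaks on chromosome 16 and 36.2% on chromosome 14, and less on the rest. The lost peaks here were higher in mature library B than in mature library A, with a median log2 ratio of 0.37 for the 52 peaks, against 0.02 for the 383 2-fold losses on the rest of the chromosome, and its part in the result was not tested. With each library left out in turn, the median log2 fold of these 6 Mb was -0.91 to -0.85.

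The end of the chromosome had the lowest window of all. From 64000001 to 65000000, with 9 peaks up to the last at 64270694, the sums were 37.7 and 37.7 CPM in reseeded libraries A and B, against 106 and 156 CPM in mature libraries A and B. The log2 fold was -1.77 (SE 0.17, adjusted p = 4.82e-05), and 6 of the 9 peaks were at least 4-fold lower. The mature libraries differed by more here than in most windows, with a median log2 ratio of B to A of 0.65 over its peaks, but both lay above both reseeded libraries. The window before it, from 63000001 to 64000000, was called higher (log2 fold 0.1, SE 0.02, adjusted p = 0.00232). The far ends of other chromosomes were not compared.

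Directly beyond the lost start, 5 tested windows in succession, from 6000001 to 12000000, were called higher. The highest of all windows was that from 11000001 to 12000000 (13 peaks), with 168 and 164 CPM in reseeded libraries, against 92.4 and 101 CPM in mature libraries, and the log2 fold was 0.78 (SE 0.05, adjusted p = 6.49e-06). The window from 9000001 to 10000000 (27 peaks) had 337 and 333 CPM in reseeded libraries, against 221 and 219 CPM in mature libraries, and the log2 fold was 0.60 (SE 0.02, adjusted p = 1.10e-06). These 200 peaks from 6000001 to 12000000 included 63 2-fold gains and 27 2-fold losses, against 640 and 435 of 2622 over the chromosome. In the series these shares were 26.9% and 15.0%. Gains thus held a somewhat higher share in this block and losses a somewhat lower one. The change of sign near 6 Mb was one of proportions and not of all peaks.

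A second such block lay from 24000001 to 30000000, where 5 tested windows in succession were called higher and 80 of 203 peaks were 2-fold gains and 21 were 2-fold losses. Within it, the window from 26000001 to 27000000 (55 peaks) had 1178 and 1171 CPM in reseeded libraries, against 752 and 779 CPM in mature libraries, and the log2 fold was 0.62 (SE 0.02, adjusted p = 5.44e-07). Its peaks included 24 2-fold gains and 3 2-fold losses. The window from 14000001 to 15000000 (32 peaks), with 585 and 589 CPM in reseeded libraries against 434 and 429 CPM in mature libraries, had a log2 fold of 0.44 (SE 0.02, adjusted p = 2.31e-06). Peaks were nearly absent from 41000001 to 47000000, where 6 windows in succession held 8 peaks in all and were not tested.

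The windows with most peaks were called lower by small folds. The densest, from 60000001 to 61000000 with 129 peaks, had 2935 and 2898 CPM in reseeded libraries, against 3534 and 3544 CPM in mature libraries, and the log2 fold was -0.28 (SE 0.01, adjusted p = 3.02e-06). Its 26 2-fold gains and 27 2-fold losses nearly matched in number. The next, from 21000001 to 22000000 with 117 peaks, had 2835 and 2815 CPM in reseeded libraries, against 3010 and 2941 CPM in mature libraries, and the log2 fold was -0.08 (SE 0.02, adjusted p = 0.00456). The window from 59000001 to 60000000, with 100 peaks, had 2326 and 2307 CPM in reseeded libraries, against 2953 and 2899 CPM in mature libraries, and the log2 fold was -0.34 (SE 0.02, adjusted p = 1.87e-06). All 3 turned positive under loess offsets, at 0.16, 0.34 and 0.04, so their direction rests on the scaling.

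Small net differences hid large ones of single peaks. Of the 53 tested windows 47 held both 2-fold gains and 2-fold losses. These windows held a median of 42 peaks, enough for most to hold both kinds at the chromosome's shares of 24.4% and 16.6%. The same count is not given for other chromosomes, so it marks no trait of chromosome 17. In the window from 20000001 to 21000000 (log2 fold 0.07, SE 0.02, adjusted p = 0.00435), 19 of 71 tested peaks were 2-fold gains and 14 2-fold losses, with 1523 and 1491 CPM in reseeded libraries against 1434 and 1428 CPM in mature libraries. In the window from 58000001 to 59000000 (log2 fold -0.04, SE 0.02, adjusted p = 0.0413), 18 of 85 were 2-fold gains and 11 2-fold losses, with 1653 and 1625 CPM in reseeded libraries against 1694 and 1678 CPM in mature libraries. The first of these calls was lost without mature A, mature B or reseeded A (adjusted p = 0.186, 0.277 and 0.0586), and the second without mature A, reseeded A or reseeded B (adjusted p = 0.115, 0.0697 and 0.169). Loess offsets turned the second to a log2 fold of 0.20 (adjusted p = 1.22e-05), and scaling by library size alone ended its call (adjusted p = 0.997). Of the 21 windows called lower, 8 held more 2-fold gains than 2-fold losses. Of the 25 windows called higher, 0 held more 2-fold losses than 2-fold gains, while over all 53 windows 40 held more 2-fold gains. Counted over all called peaks of any fold, 4 of the 25 held more peaks called lower than higher, and 3 of the 21 the reverse. In one of the 8, from 51000001 to 52000000, the sum fell (log2 fold -0.10, SE 0.02, adjusted p = 0.0016) while 13 peaks were 2-fold gains and 3 2-fold losses.

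The excess of gains was smaller in dense windows, on chromosome 17 and on the other numbered chromosomes alike. In windows of chromosome 17 with 5 to 29 peaks, 26.3% of 243 peaks were 2-fold gains and 17.3% 2-fold losses, against 36.0% and 11.6% of 15002 peaks in such windows elsewhere. In windows with 60 peaks or more, 20.8% of 1423 peaks were 2-fold gains and 16.9% 2-fold losses, against 17% and 19.0% of 17751 peaks elsewhere. Windows with 30 to 59 peaks held 29.2% gains and 15.8% losses, against 28.9% and 13.7% elsewhere. In the dense class the 2-fold gains thus outnumbered the 2-fold losses on chromosome 17 and not elsewhere, but at 4-fold losses led in both, with 4.92% gains and 6.47% losses on chromosome 17, against 4.92% and 6.93% elsewhere. Dense windows were also mostly called lower in both, with 4 higher and 9 lower of 17 on chromosome 17, against 39 higher and 161 lower of 223 elsewhere. In the dense class the median CPM was 15.3 in reseeded and 15.4 in mature cells on chromosome 17, and 13.3 and 15.3 on the others. Thus the peaks of dense windows were about equally strong in mature cells on chromosome 17 and elsewhere, and stronger on chromosome 17 after reseeding. Chromosome 17 was chosen by its density of peaks and its median fold, so this contrast can restate that choice. The values elsewhere pool all other numbered chromosomes, and no single chromosome is given. Across its 53 windows the log2 fold had little correlation with the number of peaks (Pearson's r = 0.0408, Spearman's rho = -0.0747). This describes windows that share the 4 libraries. By class, the median log2 fold of the windows was 0.1 with 5 to 29 peaks, 0.1 with 30 to 59 and -0.05 with 60 or more. Windows with 5 to 29 peaks had the widest range of log2 folds, from -1.77 to 0.78. These contrasts were not tested.

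**Figure D3:**
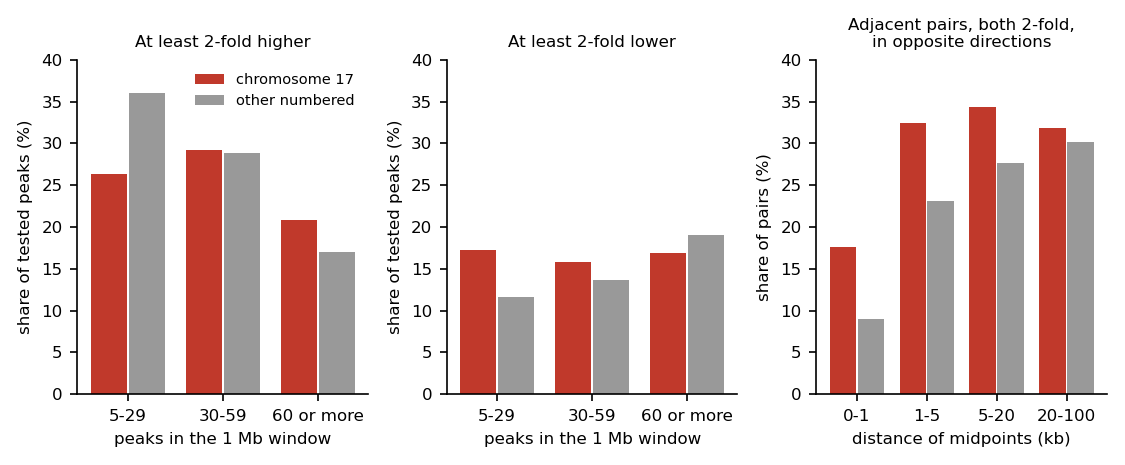
The left and middle panels give the share of tested peaks that were 2-fold gains and 2-fold losses (reseeded over mature) by the number of peaks in their 1 Mb window, for chromosome 17 and for the other numbered chromosomes. The right panel gives the share of adjacent pairs, both changed by 2-fold or more, that went in opposite directions, by distance; within 1 kb it was 17.6% on chromosome 17 and 8.96% on the others.

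The 10 peaks with the largest gains were weak in mature cells, and each averaged more CPM after reseeding than the median peak of the chromosome (14.5 CPM). They had the highest log2 folds of all peaks that were called, averaged 50 counts or more and showed no overlap between groups, and they lay in 8 windows from 18 to 60 Mb. The peak from 49134675 to 49135175 had 44.9 and 44.7 CPM in reseeded libraries A and B, against 3.13 and 2.59 CPM in mature libraries A and B, and the log2 fold was 3.94 (SE 0.14, adjusted p = 3.78e-22). The peak from 52892648 to 52893148 had 42.0 and 40.8 CPM in reseeded libraries, against 2.44 and 3.40 CPM in mature libraries, and the log2 fold was 3.86 (SE 0.15). All mature values of both lay far below all reseeded ones.

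The remaining 8 gains were close in size to these, with log2 folds of 3.59 to 3.80. The peak from 31297068 to 31297568 averaged 21.8 ± 0.103 CPM in reseeded and 1.59 ± 0.276 CPM in mature cells (SD, n = 2 each). The peak from 52252930 to 52253430 averaged 44.9 ± 2.91 CPM in reseeded and 3.27 ± 0.191 CPM in mature cells. The lowest mature values were at the peak from 47326124 to 47326624, where 233 and 397 counts in reseeded libraries A and B stood against 5 and 11 counts in mature libraries A and B. Its pooled ratio was 14.0 (95% counting interval 8.57 to 24.7), and its fold was 8.47 with mature A left out and 25.6 with mature B left out, so its size rests on single mature libraries. In order of fold, the others began at 20789084, 19217963, 60318121, 31523446 and 18312918 and gained 12-fold to 12.8-fold.

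The neighbours of the largest gains went in both directions. Within 50 kb of the 10 peaks were 64 further tested peaks, with 14 2-fold gains (21.9%) and 14 2-fold losses (21.9%) among them, against 24.4% and 16.6% over the chromosome. The nearest neighbours of the peaks at 47326124 and 31297068, 4.19 and 19.3 kb away, had log2 folds of 2.04 and 1.72, and those of the peaks at 52252930 and 20789084 had 0.98 and 0.99. In the other direction, that of the peak at 31523446, 1.81 kb away, had a log2 fold of -1.81, and that of the peak at 60318121, 2.70 kb away, had -1.26. The peak at 18312918 had no other peak within 50 kb, the nearest lying 60.4 kb away with a log2 fold of 0.27. Mature library B was above mature library A by a median log2 ratio of 0.26 over the 181 gains of at least 4-fold, against 0.04 over the 426 peaks that were not called, and its part in the gains was not tested.

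**Figure D4:**
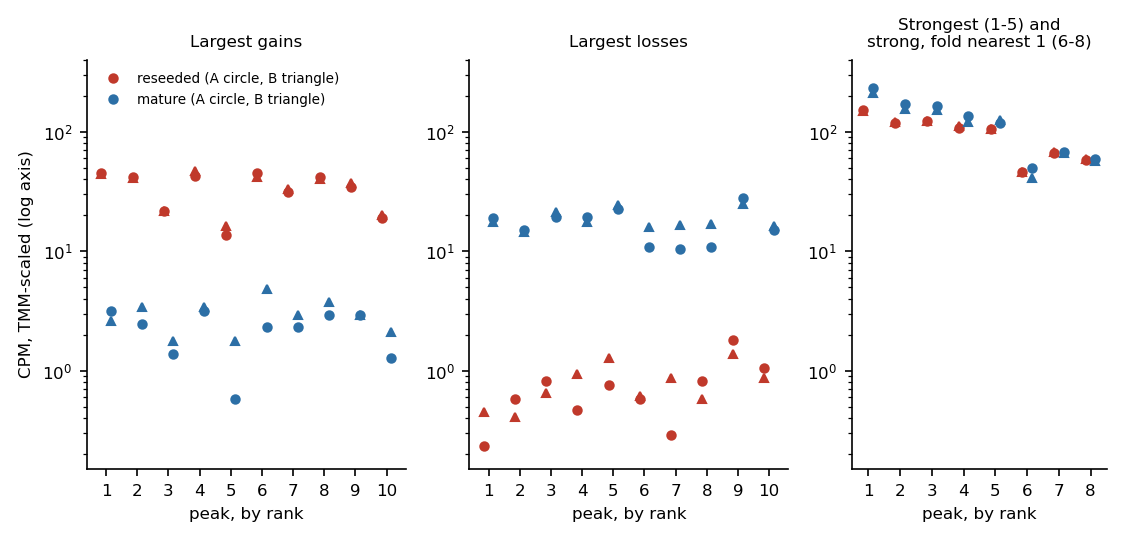
CPM (log axis) of the named peaks of chromosome 17 in reseeded and mature libraries A (circles) and B (triangles), ranked by size of fold, by mean CPM (the 5 strongest) or by closeness of the fold to 1 (the last 3). Reseeded values stand above mature ones at each of the 10 gains, below them at each of the 10 losses and slightly below them at the 5 strongest peaks, while the groups overlap at the 3 peaks with a fold nearest 1.

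The 10 named losses were larger in fold than the 10 gains, and their reseeded libraries held 4 to 34 counts each. This comparison depends on depth, as a count of 3 is 0.348 and 0.486 CPM in mature libraries A and B, above its value in the deeper reseeded libraries. Losses could thus reach larger folds than gains before counts ran out. The lowest loss was at 23999844 to 24000344, with 4 and 11 counts (0.233 and 0.451 CPM) in reseeded libraries A and B, against 165 and 109 counts (19.1 and 17.7 CPM) in mature libraries A and B. Its log2 fold was -5.64 (SE 0.28, adjusted p = 1.26e-18), or 50.0-fold lower, and a count of 3 corresponds to 0.175 and 0.123 CPM in these reseeded libraries. Without reseeded library B its loss was 75.9-fold, and loess offsets gave it a log2 fold of -8.22. Loess offsets moved all 10 of the losses by over 1.5 times, to log2 folds of -8.22 to -4.77, and 3 of the 10 gains, at 47326124, 31297068 and 18312918, to 1.95, 2.84 and 2.53. The sizes of these folds thus depend on the scaling, and their directions and calls did not. The peak from 53781547 to 53782047 had 10 and 10 counts in reseeded libraries, against 130 and 90 counts in mature libraries, and the log2 fold was -4.92 (SE 0.30, adjusted p = 2.71e-16). The peak from 62846141 to 62846641 had 14 and 16 counts in reseeded libraries, against 167 and 131 counts in mature libraries, and the log2 fold was -4.79 (SE 0.23). In all 3 the mature libraries held clear peaks of similar height.

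Of the other 7 losses, 3 lay in the first 2 Mb of the chromosome, and there the mature libraries differed more. The peak from 41095 to 41595 had 0.584 and 0.615 CPM in reseeded libraries A and B, against 10.8 and 16.0 CPM in mature libraries A and B, and the log2 fold was -4.43 (SE 0.32). The peaks from 1626977 to 1627477 and from 804808 to 805308 had log2 folds of -4.39 (SE 0.34) and -4.31 (SE 0.32), with 10.4 and 10.9 CPM in mature A and 16.5 and 16.8 CPM in mature B. The peak at 1626977 had 5 counts in reseeded A and 21 in reseeded B, and its loss was 21.0-fold, or 44.2-fold without reseeded B. Near each of the 3 lay another lost peak, 0.842, 27.6 and 10.6 kb away in the order given, with log2 folds of -3.50, -3.81 and -3.79.

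The remaining 4 were spread over the body of the chromosome. They lay from 31673048 to 31673548 (24.6-fold lower, and 39-fold without reseeded B), from 47740885 to 47741385 (21.9-fold), from 49699949 to 49700449 (16.9-fold) and from 20748846 to 20749346 (16.4-fold). The loss at 47740885, with 0.759 and 1.27 CPM in reseeded libraries against 22.4 and 24.5 CPM in mature libraries, stood 1.26 kb from a peak with a log2 fold of 2.25. The nearest peaks to the losses at 31673048 and 20748846, 1.55 and 10.4 kb away, had log2 folds of -3.53 and -2.50, and that to the loss at 49699949 had -0.30. Within 50 kb of the 10 losses were 80 further tested peaks, with 17 2-fold losses (21.2%) and 12 2-fold gains (15.0%) among them, against 16.6% and 24.4% over the chromosome. A further 21 losses of at least 4-fold, and 0 such gains, had a mean count under 50 and could not be named under the rule, because the deeper reseeded libraries weigh most in that mean. Of these, 6 had a lower log2 fold than the 10th named loss.

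The 5 strongest peaks of chromosome 17 were slightly lower after reseeding. The peak from 60350329 to 60350829 had 151 and 149 CPM in reseeded libraries A and B, against 232 and 211 CPM in mature libraries A and B, and the log2 fold was -0.57 (SE 0.06, adjusted p = 1.16e-09). It lies in the densest window, and the peak next to it, 0.587 kb away, had a log2 fold of -1.06. The peaks from 51412612 to 51413112 and from 37885911 to 37886411 averaged 120 ± 1.08 and 122 ± 0.572 CPM in reseeded cells, against 163 ± 12.6 and 158 ± 9.66 CPM in mature cells (SD, n = 2 each), with log2 folds of -0.45 and -0.38. The 4th and 5th, from 48673364 to 48673864 and from 52809973 to 52810473, had log2 folds of -0.24 and -0.22 and lost their calls without reseeded A (adjusted p = 0.0806 and 0.0722), and the 5th also without reseeded B (adjusted p = 0.0643). Under loess offsets all 5 turned positive, at 0.04 to 0.27.

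Strong peaks with no detected difference could stand beside peaks that changed. Among the 10% of its peaks with the highest mean CPM, the 3 folds nearest 1 were at 60994666 to 60995166, 15186937 to 15187437 and 31516717 to 31517217. They averaged 46.1 ± 0.111, 67.4 ± 1.21 and 58.4 ± 1.11 CPM in reseeded cells, against 45.3 ± 6.12, 66.9 ± 1.44 and 57.9 ± 1.26 CPM in mature cells. Each log2 fold was 0.01, with SE of 0.08, 0.07 and 0.07. The peak next to the one at 15186937, 0.714 kb away, had a log2 fold of 2.15, and that next to the one at 31516717, 0.625 kb away, had 1.21, while that next to the one at 60994666, 0.577 kb away, had 0.26. Under loess offsets all 3 were called higher, with log2 folds of 0.29 to 0.38.

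Adjacent peaks on chromosome 17 shared a direction most often within 1 kb. From 1 to 100 kb they did so less often, but still in most pairs. Adjacent tested peaks with midpoints within 1 kb had folds of one sign in 70.9% of 388 pairs, with a Pearson's r of their log2 folds of 0.446, against 72.6% of 6227 pairs and r of 0.607 on the others. From 1 to 5 kb these values were 55.8% of 764 pairs and 0.205, against 60.5% of 13815 pairs and 0.325. Single chromosomes varied: within 1 kb r was 0.458 on chromosome 20, 0.446 on chromosome 11 and 0.533 on chromosome 9. It was lower on chromosomes 33, 34 and 26 (0.336, 0.297 and 0.244) and higher on most others. By the share of one sign within 1 kb, chromosome 17 ranked 25 of 38 from the highest. Where both peaks of a pair within 1 kb were called and changed by 2-fold or more, 13 of 74 pairs (17.6%) went in opposite directions, against 102 of 1139 (8.96%) on the others. From 1 to 5 kb it was 49 of 151 pairs (32.5%), against 591 of 2561 (23.1%). At 20 to 100 kb the shares were close, 31.8% and 30.2%. Pairs share libraries and peaks, and no test of the difference was made.

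Runs of neighbours changed in one direction were short. With at least 3 peaks in a row, each a 2-fold difference in one direction and no more than 20 kb from the next, 33 runs of gains held 114 peaks (17.8% of the 2-fold gains) and 25 runs of losses held 87 of the 435 2-fold losses. On the other numbered chromosomes the shares were 16.5% of gains and 17.1% of losses. The number of runs of gains was 20 without mature A and 11 under loess offsets. Both runs of gains with most peaks, 6 each, lay next to each other in the window from 26000001 to 27000000. The first, from 26279107 to 26316319, summed to 205 and 204 CPM in reseeded libraries A and B, against 68.9 and 72.7 CPM in mature libraries A and B, with log2 folds of 1.05 to 2.42. The second, from 26347296 to 26374994, summed to 103 and 103 CPM in reseeded libraries, against 21.7 and 25.6 CPM in mature libraries, with log2 folds of 1.02 to 2.85. The first by position of the runs of 5 peaks, from 9026155 to 9065305, lies in the gained block beyond the lost start and had a median log2 fold of 1.83.

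The run of losses with most peaks, 6 from 53918885 to 53943874, summed to 108 and 111 CPM in reseeded libraries, against 359 and 344 CPM in mature libraries, with log2 folds of -3.46 to -1.08. Of the 9 runs of 4 peaks, the 2 nearest the start of the chromosome are given. The run from 38283 to 42437, which begins with the first tested peak of the chromosome, summed to 3.21 and 4.59 CPM in reseeded libraries, against 45.7 and 59.9 CPM in mature libraries, with log2 folds of -4.43 to -3.48. The run from 5910256 to 5921678, at the far edge of the lost start, summed to 69.9 and 71.3 CPM in reseeded libraries, against 180 and 176 CPM in mature libraries, with log2 folds of -1.86 to -1.01. The median log2 ratio of mature B to mature A was 0.43 in the run at the chromosome's start, and its part in the result was not tested.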

How the data were processed

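The authors deposited raw counts per peak, 59081 peaks in 4 libraries. Bowtie2, MACS2 and the build CanFam3.1 are named per the submitters' processing notes. Settings, treatment of duplicates and of the offset at Tn5 cuts, and the unit counted (read, fragment or insertion) were not given in the sources used here. Chromosomes were read from sequence accessions (number minus 6582), and positions count from 1, with the listed starts taken as counted from 0. The deposited counts went into edgeR 4.0.16 (R 4.3.3) with filterByExpr, TMM factors and the quasi-likelihood test, reseeded over mature, with no block and Benjamini-Hochberg adjustment over 59076 tested peaks. On chromosome 17 one peak (20670343 to 20670843, with 3, 2, 4 and 11 counts in reseeded A, reseeded B, mature A and mature B) failed the filter. Counts were summed in 1803 windows of 1 Mb with at least 5 peaks and tested with the peaks' factors. The SE of a log2 fold comes from the fold and its F statistic. Counting intervals are exact Clopper-Pearson intervals at 95%, and with no molecular identifiers named they and the floor of 3 counts cover counting error only.

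Library totals were 16906566 and 24015663 counts (reseeded A, B) and 8759513 and 6253706 (mature A, B). The chi-square per degree of freedom over the peaks of chromosome 17 was 1.11 for the reseeded pair and 2.01 for the mature pair, against 57.8 and 51.4 between groups. Both fits were run on simulated data with a dispersion shared by all libraries and few changed peaks. The peak fit recovered 70 of 100 changes of 1.5-fold and 97 of 100 of 2-fold, with 4 false calls. The window fit recovered 20 of 20 changes of 1.3-fold, with 0 false calls. In the real data most peaks were called and the spread differed between groups, so these runs do not give the error rate here. Named on chromosome 17 were the 10 highest and 10 lowest folds of peaks that were called, averaged 50 counts or more and did not overlap between groups, the 5 highest mean CPM, the 3 folds nearest 1 in the top 10% by mean CPM, the 4 highest and 4 lowest called windows, the 3 with most peaks, the 3 called windows nearest 0 with at least 30 peaks, and the 3 runs with most peaks in each direction, ties by position. Other windows and values were chosen after they were seen. The chromosome, the lists and the tests were chosen with earlier results of these data known. Alternatives were other scalings, filters and bounds, DESeq2 1.42.0, a replicate block, other window sizes and each library left out. No genome or annotation of the same build was used, so no sequence or gene is given.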

Additional observations from a re-analysis of the deposited data

How the results depend on the processing

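Of 172 alternatives for the counts and medians of chromosome 17, 154 stayed within 1.5 times the count or within the spread of the median. This bound applies to each count alone, so the order of gains and losses could turn within it, as it did for the 4-fold counts. Some alternatives, such as other count filters, gave nearly the counts of the main fit, so the tally is no measure of robustness. With a fold of 1.5 as the null, 752 peaks were higher and 592 lower, or 56.0% of calls higher against 48.9% with a null of no difference, and 1 window higher and 3 lower were called, as small folds no longer pass. The median log2 fold was 0.03 by library size alone and by upper-quartile factors and -0.04 under loess offsets. That of the first 6 Mb was -0.83 by library size alone and by upper-quartile factors and -0.91 to -0.85 with a library left out. Windows of 500 kb gave 42 higher and 43 lower calls, and windows of 2 Mb gave 11 higher and 14 lower. The share of calls that were higher was thus 49.4% and 44.0%, against 54.3% with windows of 1 Mb. The side with more calls therefore changed with the window size, as it did without mature B or reseeded B. Factors computed on window sums, added after the data were seen, gave 16 higher windows. Runs of gains numbered 11 under loess offsets, 21 with neighbours at most 10 kb apart and 20 to 36 with a library left out.

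Of the 28 named peaks, the 20 gains and losses kept direction and call under every alternative run, while their sizes moved by over 1.5 times under loess offsets for 3 gains and 10 losses. Loess offsets reversed the 5 strongest, at 0.04, 0.09, 0.16, 0.26 and 0.27 in order of strength, and the windows at 60000001, 21000001, 59000001 and 58000001, at 0.16, 0.34, 0.04 and 0.20. The cause was not tested. The replicate block by library letter called 1053 peaks higher and 1113 lower and changed none of the calls of named peaks and windows. The letters gave no sign of pairing, since the correlation between groups of the A minus B difference was 0.0314 over all peaks. Library size alone and upper-quartile factors ended the calls of the windows at 21000001 and 58000001, and factors computed on window sums ended that at 20000001. Without reseeded A or B the peaks called higher numbered 979 and 952, and without mature A or B 975 and 1081. GC correction was not run.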
